A study of Mus musculus with 2 samples.

Results

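Introns of Htr2c, the X-linked gene of the serotonin 5-HT2C receptor, hold the 5 microRNA (miRNA) genes described here: Mir764, Mir1912, Mir1264, Mir1298 and Mir448. Short RNAs were sequenced from the left cerebral cortex of male mice at postnatal day 10, and Mir1298 took most of their reads and stood several-fold apart between the libraries. The mice were B6CASTF1/J, the F1 cross of B6 with CAST. There is 1 group with 2 biological replicates, which the labels number as different males while naming 1 donor for the strain. No treatment, engineered allele, other age, other tissue or female was in the study, so there was no comparison of conditions. The 5 genes were chosen by symbol, as hairpins in Htr2c introns, out of 2202 miRNA genes listed in each library, and all 5 were found. They were selected on these data as well: the level of Mir1298 and its difference between the libraries were known when the set was named. Their levels and ratios are therefore given as a description, with no test.

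Htr2c encodes a G protein-coupled serotonin receptor that signals through phospholipase C, and it is known for its very high level in the epithelium of the choroid plexus as well as for its expression in neurons. An intronic miRNA can be cut from the transcript of its host gene: Drosha releases the hairpin, Dicer cuts out a short duplex, and 1 strand of it guides Argonaute to messenger RNAs that pair with its seed, bases 2 to 8. Hairpins of 1 host transcript start from the same RNA but need not yield the same amount of mature strand. A male carries a single X chromosome, inherited from the mother. The labels do not state the direction of the cross.

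The mature strands are shown first, because the seeds set which messages each of these miRNAs can pair with. They come from RefSeq (GRCm38.p6), which held at least 1 strand for 5 of 5 genes, and are written 5′ to 3′ with the seed in capitals.
mmu-miR-764-5p: gGUGCUCAcauguccuccu
mmu-miR-764-3p: aGGAGGCCauaguggcaacugu
mmu-miR-1912-3p: cACAGAACaugcagugagaacu
mmu-miR-1264-3p: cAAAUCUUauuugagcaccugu
mmu-miR-1298-5p: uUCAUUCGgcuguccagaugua
mmu-miR-1298-3p: cAUCUGGGcaacugauugaacu
mmu-miR-448-5p: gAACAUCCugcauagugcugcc
mmu-miR-448-3p: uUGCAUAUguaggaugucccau
The 8 strands had 8 distinct seeds. The 5p strands of Mir1912 and Mir1264 were not used here. The longest stretch that strands of different genes had in common was 8 bases, between miR-764-3p and miR-1298-3p.

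Among the 1738 mature strands of the RefSeq table, 1 strand from another gene carried a whole seed of the cluster. It was miR-7062-5p, which has the seed of miR-764-3p and whose gene Mir7062 had 3 and 5 reads in replicates 1 and 2. A match over bases 2 to 7 alone linked miR-448-5p with miR-499-3p, miR-448-3p with miR-6335 and miR-153-3p, and miR-1298-5p with miR-12187-3p. The pair below is shown because Mir153 was a well-sequenced neuronal miRNA gene in these libraries.
mmu-miR-448-3p: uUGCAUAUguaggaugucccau
mmu-miR-153-3p: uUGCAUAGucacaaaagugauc
Mir153 had 1180 and 96 reads in replicates 1 and 2, a log2 ratio of -2.999 between the libraries, opposite in sign to that of Mir448. Mir499 had 59 and 39 reads (log2 ratio 0.02), and Mir6335 had 0 in both.

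The hairpins of the most abundant member and of the one in the other intron are given with their mature strands in capitals, since the counts add up the reads of both arms.
Mir1298: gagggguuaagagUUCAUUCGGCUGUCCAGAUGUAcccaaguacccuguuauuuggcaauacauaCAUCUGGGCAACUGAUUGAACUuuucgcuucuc
Mir448: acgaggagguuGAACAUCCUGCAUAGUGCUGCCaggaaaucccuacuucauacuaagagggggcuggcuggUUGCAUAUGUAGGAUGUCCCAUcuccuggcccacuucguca
Reads were counted per hairpin, so which arm gave them cannot be told apart. Of the 2202 listed hairpins, 0 others shared a stretch of 20 bases with any of the 5. Reads that map to more than 1 place were counted for no gene, which lowers the counts of near-identical hairpins such as those of multicopy families.

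Htr2c spans chrX:146962513-147197277 on the plus strand (mm10, GENCODE M21, ENSMUSG00000041380.13), a length of 234.765 kb. In its protein-coding transcript Htr2c-201, which has 6 exons, the hairpins of Mir764 (chrX:147002259-147002366), Mir1912 (chrX:147009441-147009527), Mir1264 (chrX:147010601-147010686) and Mir1298 (chrX:147064905-147065002) all lie in intron 2. That intron runs over 90.779 kb. Mir448 (chrX:147158210-147158321) lies alone in intron 4, which is 93.522 kb long. Transcript Htr2c-202 has 1 exon more, and there the same introns are numbered 3 and 5.

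Mir1912 and Mir1264 are the closest pair, 1073 bases apart, and Mir764 ends 7074 bases before Mir1912. Mir1298 starts 54218 bases beyond Mir1264 and ends 7382 bases before the end of its intron. Mir448 lies another 93207 bases downstream and ends 11248 bases before the end of its own. No gene of a type other than miRNA is annotated on the opposite strand over any of the 5 hairpins. Opposite-strand miRNA genes were not searched for. All 5 had 0 reads on the opposite strand in both libraries, and their counts without regard to strand equalled their sense counts. The annotation lists 2 further miRNA rows inside Htr2c, which are not among the 5 named genes: Gm22650, with 2 and 5 reads, and Gm24627, with 0 and 0.

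**Figure D1:**
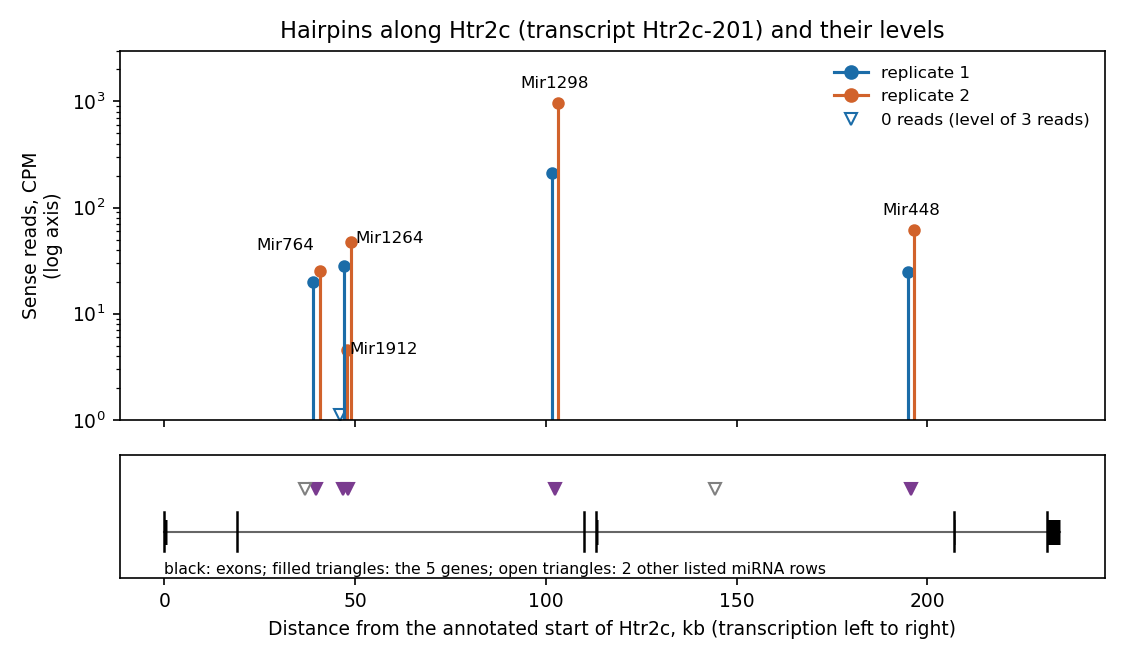
Position of the miRNA hairpins along Htr2c, in kb from the annotated start of the gene (lower panel, exons of Htr2c-201 in black), and their levels in CPM on a log axis (upper panel, 1 line per library). Mir1298, 102.392 kb into the gene, is the highest in both libraries. Mir1912, next to Mir1264, is the lowest.

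Replicate 1 was sequenced to 9089257 reads and replicate 2 to 7432614, and sense reads in miRNA genes were 2677910 (29.5%) and 1750076 (23.5%) of them. Levels are given as CPM, the reads of a gene scaled to the same total of those sense reads in each library. A mature strand is covered by 1 read whatever the hairpin's length, so CPM were not divided by length, but ligation can favour some sequences and comparisons between genes carry that error too. A count of 3 reads equals 1.12 CPM in replicate 1 and 1.71 CPM in replicate 2. Intervals cover counting error only. Replicate 2, in which the members were higher, also had more unmapped reads (42.4% against 25.5% of all reads), and the part of this in the members' ratios was not tested. Of 19 neuronal miRNA genes, 15 reached 2 CPM in both libraries, at a summed 48271 and 37777 CPM, as a tissue check.

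Summed over the 5 genes there were 765 reads in the first library and 1944 in the second. This was 286 CPM (95% exact Poisson interval 266 to 307) and 1111 CPM (1062 to 1161), a mean of 698 ± 583 CPM (SD, n = 2). They made up 0.0286% and 0.111% of all assigned reads. The sum stood 3.89 times higher in replicate 2. The intervals of the libraries did not overlap, but they cover counting error only and leave out the spread between animals.

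Mir1298 was the most abundant of the 5. It had 571 reads, or 213 CPM (196 to 231), in replicate 1 and 1702 reads, or 973 CPM (927 to 1019.9), in replicate 2. The mean was 593 ± 537 CPM (SD, n = 2), so the spread between the libraries was nearly as large as the level. By level it ranked 182 among all listed miRNA genes in replicate 1 and 112 in replicate 2.

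Mir448, the only member in intron 4, had 66 reads (24.6 CPM, 19.1 to 31.4) in replicate 1 and 108 reads (61.7 CPM, 50.6 to 74.5) in replicate 2, with a mean of 43.2 ± 26.2 CPM. Mir1264, in intron 2 with Mir1298, had 75 reads (28.0 CPM, 22.0 to 35.1) and 82 reads (46.9 CPM, 37.3 to 58.2), with a mean of 37.4 ± 13.3 CPM. The ranges of these genes over the libraries overlapped, and their order changed: Mir1264 was above Mir448 in replicate 1 and below it in replicate 2. Within each library the ratio of Mir448 to Mir1264 had a counting interval that included 1, at 0.880 (0.622 to 1.24) and 1.32 (0.979 to 1.78).

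Mir764, the member nearest to the start of the gene, had 53 reads (19.8 CPM, 14.8 to 25.9) in replicate 1 and 44 reads (25.1 CPM, 18.3 to 33.8) in replicate 2, with a mean of 22.5 ± 3.78 CPM. It had fewer reads in replicate 2 but a higher CPM, because its library had fewer reads in miRNA genes. Its range lay below that of Mir1264 and overlapped that of Mir448. The ratio of Mir1264 to Mir764 was 1.42 (0.982 to 2.05) in replicate 1 and 1.86 (1.28 to 2.75) in replicate 2.

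Mir1912 had 0 reads in replicate 1, with an upper limit of 1.38 CPM by the same interval (3 reads would be 1.12 CPM), and 8 reads (4.57 CPM, 1.97 to 9.01) in replicate 2. It was the only member that did not reach 2 CPM in both libraries, the level taken here as detection and passed by 442 of the 2202 listed genes. In order of mean level the cluster thus ran from Mir1298 through Mir448, Mir1264 and Mir764 to Mir1912. The neighbours Mir448 and Mir1264 did not differ beyond their spread.

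**Figure D2:**
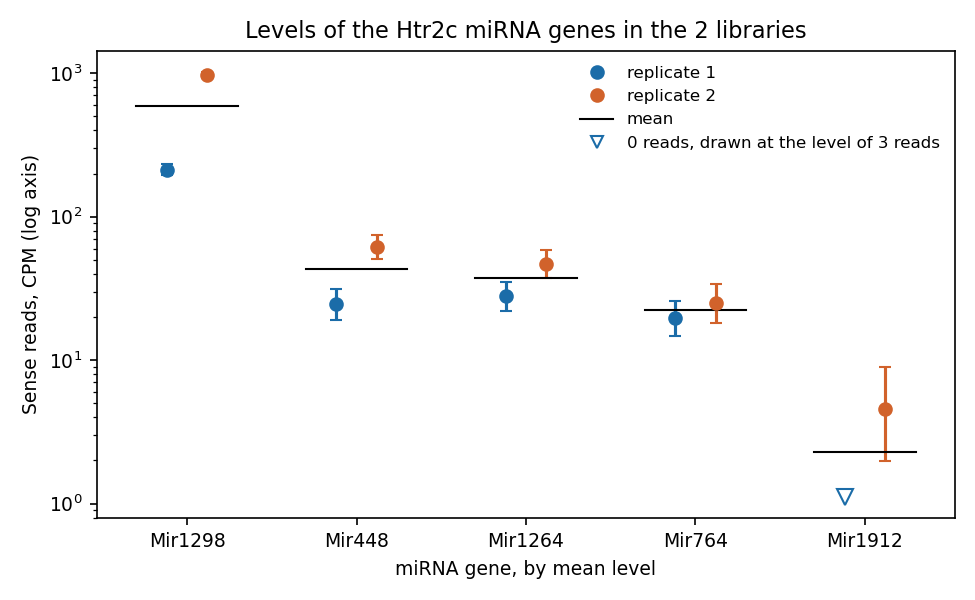
Levels of the 5 miRNA genes in CPM on a log axis, with 1 point per library, 95% exact Poisson intervals as error bars and the mean as a line. Mir1298 lies above every other member in both libraries (213 and 973 CPM). The ranges of Mir448 and Mir1264 overlap.

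Mir1298 held most of the cluster's reads in each library. Its share was 74.6% (95% Clopper-Pearson interval 71.4 to 77.7) in replicate 1 and 87.6% (86.0 to 89.0) in replicate 2, a mean of 81.1% ± 9.13 (SD, n = 2). Mir448 held 8.63% and 5.56%, Mir1264 9.80% and 4.22%, Mir764 6.93% and 2.26%, and Mir1912 0% and 0.412%. The share of Mir1298 was larger in replicate 2, and those of Mir448, Mir1264 and Mir764 were smaller.

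These within-library ratios do not depend on the library total. Mir1298 had 8.65 times (6.70 to 11.3) the reads of Mir448 in replicate 1 and 15.8 times (12.97 to 19.3) in replicate 2. Against Mir764 it was 10.8 times (8.12 to 14.6) and 38.7 times (28.7 to 53.4). Against Mir1264 it was 7.61 times (5.98 to 9.82) and 20.8 times (16.6 to 26.2). For each of these 3 genes the intervals of the 2 libraries did not overlap. As the difference in Mir1298 was known when the genes were chosen, this describes these libraries and tests nothing. Among the 4 members of intron 2 alone, Mir1298 held 81.7% and 92.7% of the reads.

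All 5 members had a higher CPM in replicate 2, by unequal amounts. Log2 ratios set replicate 2 over replicate 1, after adding 0.5 reads to every count, and carry exact binomial intervals. Mir1298, the most abundant, was 4.56-fold higher in replicate 2 (log2 ratio 2.19, 2.05 to 2.33). Mir448 was 2.50-fold higher (1.32, 0.87 to 1.79) and Mir1264 1.67-fold higher (0.74, 0.27 to 1.21).

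Mir764 was 1.27-fold higher, and its interval included no difference (0.35, -0.27 to 0.95). Mir1912 was at least 4.08-fold higher in replicate 2, taking replicate 1 at the level of 3 reads. With its 8 reads also subject to counting error, the lower limit of its log2 ratio was 1.39. Without Mir1298, the other 4 members together had 194 and 242 reads (72.4 and 138 CPM), a fold of 1.91 (log2 ratio 0.93, 0.65 to 1.21). The interval for Mir1298, for counting error only, did not meet that for the other 4.

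Past 2-fold higher in replicate 2 were 3 of the 5 members (Mir1298, Mir448 and Mir1912), and 0 were past 2-fold lower. Mir1912 reached 2 CPM only in replicate 2, so at that minimum it could not have been called lower. Of the 542 miRNA genes at 2 CPM or more in either library, 25.3% were past 2-fold in either direction and 12.0% were higher in replicate 2. With a minimum of 10 CPM these were 15.1% and 24 of 351 genes, and 2 of the 4 members left (Mir1298 and Mir448) were past 2-fold higher. Since a member's ratio was known when the set was chosen, the members' count is not read against that background. The median log2 ratio was 1.32 over the 5 members and -0.09 over all 542 genes. It was also 1.32 with Mir1912 at its bound.

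The ratio of Mir1298 was exceeded by 18 of the 542 genes, that of Mir448 by 47, that of Mir1264 by 90 and that of Mir764 by 149. With genes at 0 reads in 1 library set to their bound, these numbers were 11, 43, 90 and 149. Among 332 genes with a mean of at least 10 CPM outside the cluster, 4 had a larger ratio than Mir1298. The 5 genes nearest to its log2 ratio were Mir298 (6378 and 27444 CPM, log2 ratio 2.11), Mir26a-2 (15.3 and 61.7 CPM, 2.00), Mir222 (595 and 2238 CPM, 1.91), Mir107 (1242 and 4404 CPM, 1.83) and Mir669e (6.72 and 40.6 CPM, 2.56). Likeness here rests on 1 ratio from 2 libraries. Mir26a-2, Mir107 and Mir669e share 20 bases with another hairpin, so their counts leave out reads that map to both.

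**Figure D3:**
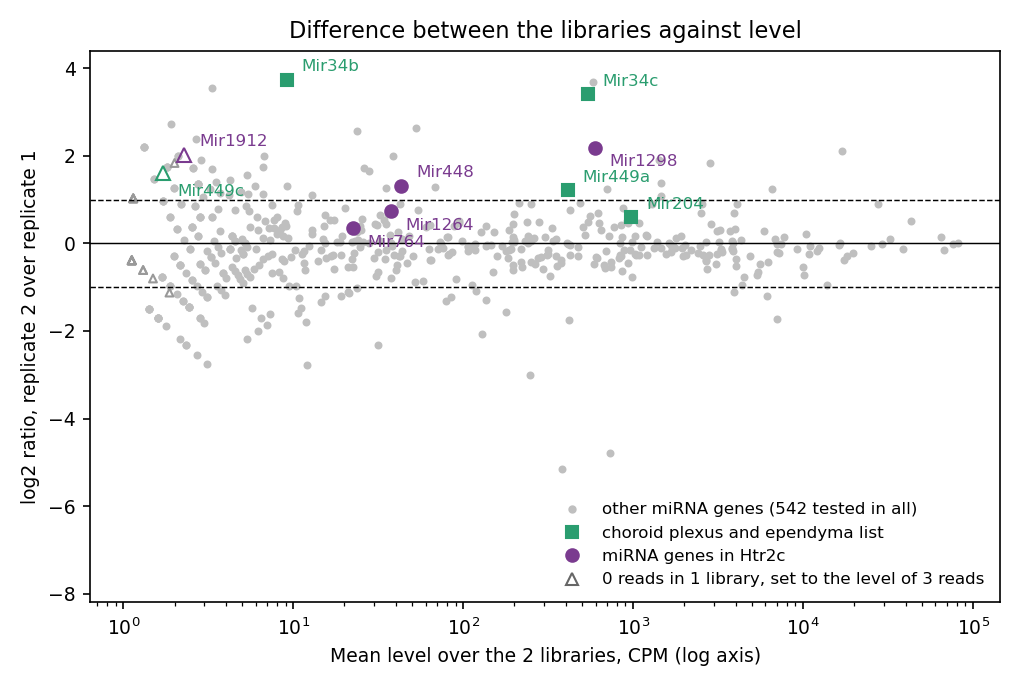
Log2 ratio of replicate 2 over replicate 1 against mean level in CPM (log axis) for the 542 miRNA genes at 2 CPM or more in either library, with dashed lines at 2-fold. Open triangles have 0 reads in 1 library, which is set to the level of 3 reads. The Htr2c members lie above 0, from Mir764 at 0.35 to Mir1298 at 2.19.

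Other genes of the X chromosome are given for comparison. The 135 other X-linked miRNA genes had a summed level of 41869 CPM in replicate 1 and 45555 CPM in replicate 2. Of these, 38 were at 2 CPM or more in either library, with a median log2 ratio of 0.00, 3 past 2-fold higher and 3 past 2-fold lower. One of the lower, Mir7093, had 6 and 0 reads and came to -0.39 with replicate 2 at 3 reads, which leaves 5 past 2-fold. The X-linked genes outside Htr2c thus stood on either side of 0. The 5 members were all above it, but the ratio of Mir1298 was known when they were chosen, so this is a description. The interval of Mir764 also included 0, and Mir1912 reached the minimum only in replicate 2. Of the 44 X-linked genes at that minimum, rows in Htr2c included, Mir201 (1 and 4 reads) had a larger ratio than Mir1298. Mir1912 did so with 0.5 reads added, but at its bound (log2 2.03) it lay below.

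Because Htr2c is known for its level in choroid plexus, the miRNA genes known from choroid plexus and ependyma are set beside the cluster. Their list has 7 genes and was drawn up with earlier results of these libraries known, so it is not independent evidence of its direction. Its summed level was 1121 CPM in replicate 1 and 2769 CPM in replicate 2, a 2.47-fold difference in the direction of the Htr2c members. Of the 5 genes on it at 2 CPM or more in either library, 4 were past 2-fold higher and 0 past 2-fold lower. Over all 542 miRNA genes at that minimum, 12.0% were past 2-fold higher. The list's median log2 ratio was 3.41, or 1.61 with Mir449c at its bound. Mir34b and Mir449c reached the minimum only in replicate 2, which favours a higher ratio. Mir211 and Mir449b reached it in neither library and were left out. With no minimum, the median over all 7 genes was 1.21.

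Mir204, in an intron of Trpm3 and abundant in choroid plexus, had 2076 and 2058 reads (775 and 1176 CPM, log2 ratio 0.60). Mir34c, of a family that acts in multiciliated cells, had 250 and 1738 reads (93.4 and 993 CPM, 3.41). Mir449a, of the same family, had 667 and 1012 reads (249 and 578 CPM, 1.21). In each of these genes replicate 2 was the higher library, as it was for Mir1298.

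Among the scarcer genes of the list, Mir34b had 3 and 30 reads (log2 ratio 3.74, 2.25 to 6.29) and Mir449c 0 and 6. Mir211 had 3 and 2 reads and Mir449b 3 and 0. None of the 7 was at 0 in both libraries. The part of choroid plexus or ependyma in the level of the Htr2c members was not tested. In bulk tissue, fewer cells of a type and less RNA per cell cannot be told apart.

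Other marker lists did not all move the same way. The 19 neuronal genes had a median log2 ratio of -0.35, with 2 past 2-fold higher and 3 lower. That is 26.3% of the list, near the 25.3% over all 542 genes. The higher included Mir124a-2 (0 and 4 reads) and the lower Mir124a-1 (10 and 2 reads). Both share 20 bases with other hairpins, so their counts leave out reads that map to more than 1 place. The erythroid genes (3) summed to 814 and 56.6 CPM in replicates 1 and 2. Of these, Mir451a was at 737 and 20.6 CPM and Mir144 at 52.3 and 10.3 CPM, while Mir486 hardly differed (25.4 and 25.7 CPM). The oligodendrocyte genes (3) summed to 834 and 1423 CPM. Lists for endothelial and mural cells (13639 and 15214 CPM), microglia and leukocytes (8755 and 6881 CPM) and other epithelium (85.9 and 82.3 CPM) differed less. The part of these cells in the members' values was not tested either.

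Htr2c was set against other neurotransmitter receptor genes that carry miRNA genes on their strand, of which the annotation gives 15 such rows. Of the 15, 5 were detected, 8 had 0 reads in both libraries and 0 of the detected were past 2-fold. Their summed level was 1638 CPM in replicate 1 and 1332 CPM in replicate 2, so it was lower in replicate 2 where the Htr2c sum was higher. The median log2 ratio of the 5 was -0.25.

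Mir490, in the muscarinic receptor gene Chrm2, had 2982 and 1652 reads, with a mean of 1029 ± 120 CPM (SD, n = 2) and a log2 ratio of -0.24. Mir346, in the glutamate receptor gene Grid1, had 1121 and 516 reads (357 ± 87.5 CPM, -0.50). Mir592, in the metabotropic glutamate receptor gene Grm8, had 238 and 131 reads (81.9 ± 9.91 CPM, -0.25). The mean of Mir1298 thus lay between those of Mir490 and Mir346, with a larger SD than either.

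Mir224, in the GABA-A receptor gene Gabre on the X chromosome, had 20 and 18 reads (8.88 ± 1.99 CPM, 0.47). Mir6953, in Grina, had 20 and 10 reads (6.59 ± 1.24 CPM, -0.35); Grina entered by the start of its symbol and is not itself a receptor subunit. Both were below Mir764, the lowest detected member of Htr2c.

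Htr2c is 1 of 12 hosts that had 3 or more listed miRNA genes on their strand, and 1 of 7 that had 3 or more detected. In 5 of those 7, Htr2c included, no detected hairpin shared 20 bases with another. Within Htr2c the highest detected member exceeded the lowest 26.4-fold by mean level (Mir1298 over Mir764). The figure was 33.2 in Mcm7, host of the miR-106b-25 cluster (Mir93 over Mir25), and 23.3 in Clcn5, another X-linked host (Mir532 over Mir362). It was 11.4 in Ttll10 (Mir429 over Mir200a, which had 6 and 6 reads) and 3.55 in Spaca6 (Mirlet7e over Mir99b). Mcm7 and Clcn5 thus spanned ranges of levels near that of the detected Htr2c members. All listed hairpins of Mcm7 and Clcn5 were detected, whereas the Htr2c figure leaves out Mir1912, at a mean of 2.29 CPM. With Mir1912 the range of Htr2c would be far wider, from 2.29 to 593 CPM, so the likeness holds for its detected members only.

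The log2 ratios between the libraries ran from 0.35 to 2.19 over the 4 detected Htr2c members. In Mcm7 they ran from -0.07 to 0.17. In Clcn5 the range was -0.12 to 1.07, in Spaca6 -1.72 to -0.05 and in Ttll10 -1.13 to 0.61. Hairpins of 1 host differed in their ratios in Clcn5, Spaca6 and Ttll10 too, while those of Mcm7 stayed close together. In Ttll10 the upper end was Mir200a, with 6 and 6 reads (-1.29 to 2.52), an interval that overlapped that of Mir200b (-1.887 to -0.462). The interval of Mir429 (-0.445 to 0.561) lay just above that of Mir200b. The most abundant hairpin held 77.4% and 76.4% of the host's miRNA reads in Mcm7, against 46.0% and 31.8% in Clcn5 and 74.4% and 87.3% in Htr2c with all 7 of its listed rows. In the other 2 hosts, whose hairpins share sequence, highest over lowest was 409 in 2010111I01Rik (Mir23b over Mir24-1) and 134.9 in Sfmbt2 (Mir467d over Mir669h). Reads that map to more than 1 place were counted for no gene, which can lower these levels by unlike amounts. These 2 figures are therefore not comparable with those of the hosts above.

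**Figure D4:**
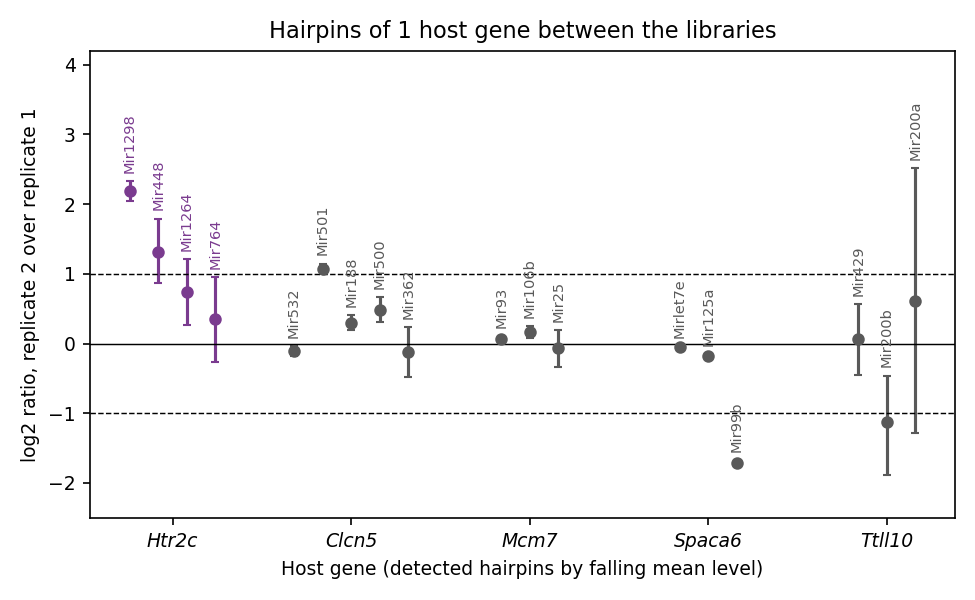
Log2 ratio of replicate 2 over replicate 1, with exact binomial 95% intervals, for the detected hairpins of the 5 host genes with 3 or more detected and no shared 20-base stretch. The 4 detected Htr2c hairpins lie above 0, from 2.19 to 0.35, but the interval of Mir764 includes 0. They are drawn by falling mean level, which includes replicate 2, so that order is not independent of the ratios. In replicate 1 alone Mir1264 (28.0 CPM) was above Mir448 (24.6 CPM). The Mcm7 hairpins lie between -0.07 and 0.17.

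The hairpins were also compared by features that the choice of the genes did not use. Mir448 was the longest at 112 bases and Mir1264 the shortest at 86, against a median of 82 (interquartile range 69 to 94) over the 442 detected genes. GC content was 36.0% in Mir1264, 37.9% in Mir1912, 44.9% in Mir1298, 46.3% in Mir764 and 52.7% in Mir448, against a median of 52.1% (45.3 to 58.4). Mir448, alone in its intron, thus had the highest GC content of the 5, and all 4 members of intron 2 lay below the median of detected genes.

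The folding energy that RNAfold predicts, where a more negative value is a more stable fold, was -46.3 kcal/mol for Mir1298, -50.5 for Mir448, -49.6 for Mir764, -41.1 for Mir1912 and -34.3 for Mir1264. Per 100 bases Mir1298 and Mir1912 both came to -47.2, although they are the highest and the lowest of the 5 by level. Mir764 came to -45.9, Mir448 to -45.1 and Mir1264 to -39.9, against a median of -43.3 (-48.3 to -38.3) over detected genes. All 5 lay within that interquartile range. In Mir1298 79.6% of the bases were paired in the predicted fold, the highest share of the 5, and in Mir448 66.1%, the lowest.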

How the data were processed

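Values are unnormalised counts of reads by miRNA gene as deposited by the authors, 1 table a library, made on mm10 with GENCODE M21 according to their accompanying text. Aligner and trimming: not given in the sources used here. By their values, the 3 count columns are unstranded, sense and opposite-strand reads. Sense reads were used and scaled to CPM over 2202 genes. Rows naming no gene (70.5% and 76.5% of reads) were left out: multimapping reads were 38.2% and 28.3% of all reads, and unmapped ones 25.5% and 42.4%. M21 gave symbols, introns and hosts (protein-coding, same strand).

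A 2-CPM minimum in either library set the 542 genes compared, and a log2 ratio of 1 in size set "past 2-fold". The members, lists and named genes were chosen with earlier results of these data known. Named were the members, the 5 genes nearest Mir1298 in ratio (10 CPM or more), the choroid plexus list, detected genes in other receptor genes, hosts with 3 or more miRNA genes, and seed matches. The libraries count as 2 samples because the labels number them as different males; they are not 1 library deposited in duplicate (chi-square 124536, 743 degrees of freedom). edgeR 4.0.16 (TMM) and DESeq2 1.42.0 (size factors) in R 4.3.3 gave other scalings, RNAfold 2.7.2 the folds, and Python 3.11.15 with scipy 1.17.1 the rest.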

Additional observations from a re-analysis of the deposited data

How the results depend on the processing

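Of 93 alternative values, 77 were rated the same, 16 moved and 0 reversed. A level or share was rated the same within the SD, and a count within 1.5 times the main count. A ratio was rated the same inside its main counting interval, the list median inside that of its median gene. With 2 libraries, a value from 1 library alone always lies within the SD, so those ratings say nothing about stability. Reversal was looked for only in ratios and in the list median. All members stayed higher in replicate 2 under every scaling, count column and added count tried, but Mir764 only barely under 1 of them. With all reads of the library as the total its log2 ratio was 0.02, and its main interval already included no difference. TMM and DESeq2 size factors added 0.05 and 0.07 to every log2 ratio. With all reads of the library as the total, the log2 ratio was 1.64 for the 5 members and 0.61 for the 4 without Mir1298, and members past 2-fold went from 3 to 2, because Mir448 came to 0.997. With the 10 most abundant genes left out of the total, the summed level was 1381 CPM, and with all reads as the total it was 173 CPM. Left at 1 library, the summed level ranged from 286 to 1111 CPM and the share of Mir1298 from 74.6% to 87.6%. Genes past 2-fold numbered 53 of 351 (15.1%) with a minimum of 10 CPM and 243 of 744 (32.7%) with none. The median of the choroid plexus list, over 5 genes in the main setting, moved with the genes that the minimum let in. It was 2.31 over 4 genes with a minimum of 10 CPM and 1.21 over 7 genes with none. With unstranded counts it was 2.88 over 5 genes, and the cause of that move was not tested. Counts under 10 reads, as in Mir1912, leave wide intervals. With 1 group of 2 libraries, the spread between animals is poorly known.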
